A study of Mus musculus with 2 samples.

Results

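The Hsd3b genes encode 3beta-hydroxysteroid dehydrogenases, and their RNA was measured in the adrenal glands of newborn mice. The members were the 7 genes whose symbol in the deposited transcript tables is Hsd3b1 to Hsd3b7, of 55536 annotated genes, and all 7 had a row in the gene tables. The series held 1 group, 4-day-old male B6CASTF1/J mice, with 2 biological replicates and no treatment, mutation or other condition. B6CASTF1/J mice are F1 hybrids with one C57BL/6J and one CAST/EiJ parent, and the tables do not separate the 2 parental alleles. Total RNA from adrenal gland tissue was made into directional libraries with ERCC spike-ins, which are synthetic RNAs of known amount. The comparisons were therefore those among the genes within the gland, among the transcripts of a gene, and between replicate 2 and replicate 1.

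Annotated genes took 30292851 expected counts in the replicate 2 library and 32231301 in that of replicate 1, where an expected count is an estimated number of reads that need not be whole. A gene at 0 counts could have made up at most 0.0990 CPM (counts scaled by the library's gene total) in replicate 2 and 0.0931 CPM in replicate 1, the share that 3 counts give. Such floors, and all intervals here, cover counting error only and not the sharing of reads among genes. Of the genes that mark the labelled tissue, Star, the mitochondrial cholesterol carrier, stood at 790 and 864 TPM in replicates 2 and 1, where TPM is a share of all transcripts after correction for their length. A list of 10 liver genes summed to 6095 TPM in replicate 2 and 233 TPM in replicate 1, none of them at 0.

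Enzymes of this family oxidise the 3beta-hydroxyl group of a steroid and, in the classical members, move its double bond, which turns pregnenolone into progesterone. The mineralocorticoids and glucocorticoids of the adrenal cortex are made through that step. In the mouse, Hsd3b1 is the main form of the adrenal gland and gonads, Hsd3b6 is known from the zona glomerulosa of the adrenal cortex and from Leydig cells, Hsd3b2, Hsd3b3, Hsd3b4 and Hsd3b5 are known from liver or kidney, and Hsd3b7 acts on sterol intermediates of bile acid synthesis. The mouse proteins of Hsd3b4 and Hsd3b5 are known as 3-ketosteroid reductases, which work in the opposite direction.

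The first 90 coding bases of each main transcript are shown because they let the members be told apart by eye, and because the likeness between them limits how reads can be assigned. They are from the GENCODE M21 transcripts on mm10, at chr3:98857875-98857964 (minus strand) for Hsd3b1, chr3:98810957-98811046 (minus) for Hsd3b6, chr3:98716471-98716560 (minus) for Hsd3b2, chr3:98753366-98753455 (minus) for Hsd3b3, chr3:98509878-98509967 (minus) for Hsd3b4, chr3:98630109-98630198 (minus) for Hsd3b5 and chr7:127801081-127801170 (plus) for Hsd3b7. Each stretch starts at the start codon, lies within 1 coding exon and reads 5′ to 3′. A capital marks a base unlike that of Hsd3b1 at the same position. Hsd3b7, which has a different length, is all in lower case and was not set against Hsd3b1 base by base.
Hsd3b1: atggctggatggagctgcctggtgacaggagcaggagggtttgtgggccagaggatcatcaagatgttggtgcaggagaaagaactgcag
Hsd3b6: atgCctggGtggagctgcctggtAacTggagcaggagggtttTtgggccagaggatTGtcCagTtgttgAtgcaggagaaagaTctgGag
Hsd3b2: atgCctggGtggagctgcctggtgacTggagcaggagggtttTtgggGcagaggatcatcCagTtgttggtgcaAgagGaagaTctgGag
Hsd3b3: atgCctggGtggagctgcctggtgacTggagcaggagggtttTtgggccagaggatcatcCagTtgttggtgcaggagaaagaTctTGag
Hsd3b4: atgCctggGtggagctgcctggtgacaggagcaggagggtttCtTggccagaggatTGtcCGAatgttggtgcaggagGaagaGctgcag
Hsd3b5: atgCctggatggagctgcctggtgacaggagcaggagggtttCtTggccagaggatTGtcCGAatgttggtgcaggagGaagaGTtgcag
Hsd3b7: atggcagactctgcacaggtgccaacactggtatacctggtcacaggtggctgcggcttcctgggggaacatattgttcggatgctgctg

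In these 90 bases Hsd3b3 differed from Hsd3b1 at 9, Hsd3b2, Hsd3b4 and Hsd3b5 at 11 each, and Hsd3b6 at 12. Gm10681 and Gm4450, protein-coding genes without an Hsd3b symbol, carried the same 90 bases as Hsd3b4. Over whole coding sequences the 6 members of chromosome 3 all measured 1122 bases with the stop codon, in coding exons of 145, 165 and 809 bases before it, so they were compared position by position. The identities fell into 2 sets of alike sequences. Hsd3b2 and Hsd3b3 shared 95.1% of coding bases, Hsd3b3 and Hsd3b6 94.5%, and Hsd3b1 was nearest to Hsd3b6, at 90.02%. In the other set, Hsd3b4 and Hsd3b5 shared 95.2%, while Hsd3b4 matched Gm10681 at every base and Gm4450 at 99.6%. Identity between the sets was between 79.6% (Hsd3b3 and Hsd3b5) and 82.7% (Hsd3b1 and Hsd3b4). Hsd3b7, with 1110 coding bases in 6 coding exons, shared 53.2% of 1200 alignment columns with Hsd3b1. Of those columns 168 were gaps, which count as unlike.

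**Figure D1:**
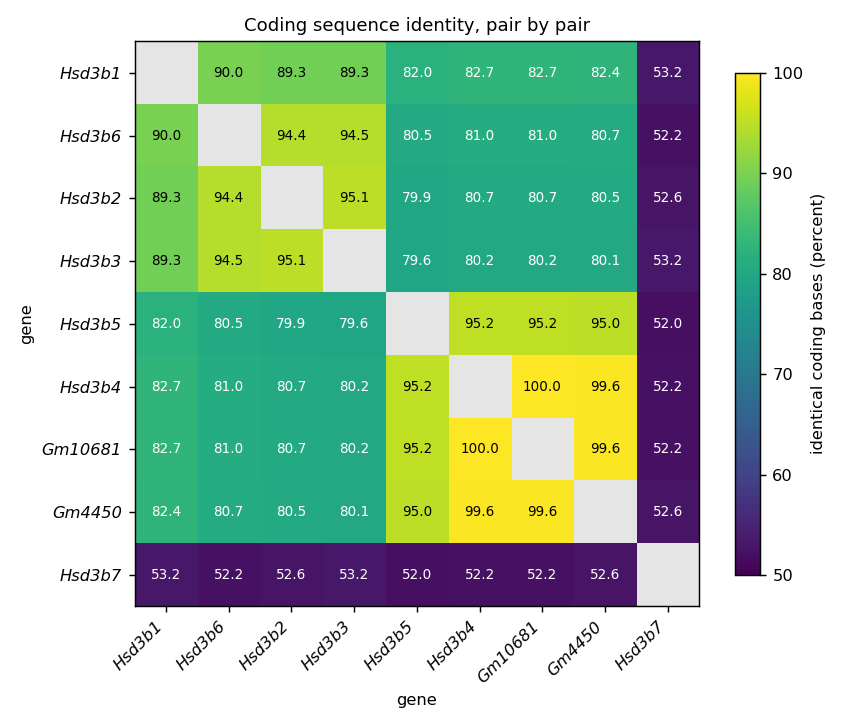
Percent of identical coding bases for each pair of 7 Hsd3b genes and the near copies Gm10681 and Gm4450, with genes on both axes and identity as colour and number. Hsd3b1, Hsd3b6, Hsd3b2 and Hsd3b3 form a block of 89.3% to 95.1%, and Hsd3b5, Hsd3b4, Gm10681 and Gm4450 one of 95.01% or more. Pairs with Hsd3b7 run from 52.0% to 53.2% of all alignment columns, with gaps counted as unlike. They are thus not on the same scale as the other pairs, which have no gaps.

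Of the 7 genes, 6 lay in one stretch of chromosome 3, from 98499071 to 98859794, or 360724 bases, all on the minus strand. Hsd3b7 lay on chromosome 7, from 127800604 to 127803802, on the plus strand. The stretch on chromosome 3 held 17 annotated genes, and the 11 that were not members were Gm10681 and 10 pseudogenes (Gm19211, Gm5853, Gm9678, Gm12399, Gm12400, Gm12427, Gm12428, Gm12431, Gm12432 and Gm12433). Of these 11, 7 had 0 counts in both libraries. Only Gm12432, at 1.92 TPM in replicate 2 and 2.43 TPM in replicate 1, and Gm12431, at 1.46 and 1.31 TPM, averaged 1 TPM or more among them, on 5 and 7 and on 3 and 3 counts in replicates 2 and 1. Within the stretch only Hsd3b1 exceeded 100 TPM in these 2 libraries.

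Hsd3b1 (ENSMUSG00000027871.16, chr3:98852194-98859794) exceeded each other member by more than 100-fold in both libraries. Replicate 2 gave 2477 TPM and replicate 1 3432 TPM, which average to 2955 ± 676 TPM (SD, n = 2). These levels came from 120580 and 185625 counts, or 0.398% of gene counts in replicate 2 (95% Wilson interval 0.3958% to 0.4003%) and 0.576% in replicate 1 (0.5733% to 0.5785%). Hsd3b1 made up 98.4% of the family's summed TPM in replicate 2 and 99.1% in replicate 1, or 98.8% ± 0.523 (SD, n = 2). The other 6 genes together held 40.6 TPM in replicate 2 and 30.2 TPM in replicate 1.

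Among 22015 nuclear protein-coding genes Hsd3b1 had the highest mean TPM. Next came Eef1a1, the translation elongation factor, at 2798 TPM in replicate 2 and 2598 TPM in replicate 1. Eef1a1 was thus above Hsd3b1 in replicate 2 and below it in replicate 1. Cyp21a1, the steroid hydroxylase that acts after Hsd3b1 on the same path, followed at 1579 TPM in replicate 2 and 2189 TPM in replicate 1. The level of Hsd3b1 relative to Cyp21a1 was nearly the same in both libraries, 1.57-fold in replicate 2 and 1.57-fold in replicate 1. Its level relative to other genes of the path varied more. Hsd3b1 stood 2.99-fold above Cyp11a1, the side-chain cleavage enzyme that makes pregnenolone, in replicate 2 and 3.68-fold above it in replicate 1. Against Star it stood 3.13-fold higher in replicate 2 and 3.97-fold higher in replicate 1.

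Hsd3b6 (ENSMUSG00000027869.14, chr3:98805504-98814443), the form known from the zona glomerulosa, was next in mean level. Its level was 15.7 TPM in replicate 2, against 18.4 TPM in replicate 1, or 17.1 ± 1.92 TPM (SD, n = 2), on 766 and 981 counts. Hsd3b1 therefore exceeded it 158-fold in replicate 2 and 186-fold in replicate 1, a gap far wider than the spread of either gene between libraries. The aldosterone synthase gene Cyp11b2, which marks the same zone and may share reads with its near copy Cyp11b1, stood at 70.4 TPM in replicate 2 and 144 TPM in replicate 1. The log2 ratio of Hsd3b6 TPM to Cyp11b2 TPM was -2.16 in replicate 2 and -2.97 in replicate 1. Set against the angiotensin receptor gene Agtr1a of that zone, at 57.3 and 62.8 TPM in replicates 2 and 1, the log2 ratios of -1.87 and -1.77 varied less. In tissue RNA, a gene confined to a few cells and a gene at a low level in many cells cannot be told apart.

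Hsd3b7 (ENSMUSG00000042289.11, chr7:127800604-127803802), the sterol enzyme of bile acid synthesis, had a mean level close to that of Hsd3b6. Its level was 17.4 TPM in replicate 2, against 11.5 TPM in replicate 1, or 14.4 ± 4.200 TPM (SD, n = 2), on 828 and 644 counts. The ranges of Hsd3b6 and Hsd3b7 overlapped and their order was opposite in the 2 libraries, so the genes did not differ beyond their spread. Cyp27a1, which starts the acidic path of bile acid synthesis, stood at 2.83 TPM in replicate 2, against 1.97 TPM in replicate 1. Hsd3b7 stood 6.14-fold above it in replicate 2 and 5.81-fold in replicate 1.

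The 4 members known from liver or kidney were low, and the order among them was not fixed. Hsd3b3 reached 5.42 TPM in replicate 2, against 0.16 TPM in replicate 1 (2.79 ± 3.72 TPM, SD, n = 2), on 226 and 8 counts. Hsd3b5 reached 1.70 TPM in replicate 2, against 0.02 TPM in replicate 1 (0.860 ± 1.19 TPM, SD, n = 2), on 74 counts and 1 count. Both were thus near absent in replicate 1. Hsd3b2 stood at 0.37 TPM in replicate 2, against 0.18 TPM in replicate 1 (0.275 ± 0.134 TPM, SD, n = 2), on 26 and 13 counts. Neighbours in the order Hsd3b3, Hsd3b5, Hsd3b2 overlapped in range.

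Hsd3b4 was listed at 0 in both libraries, which does not show that it is silent. The floor of 3 counts takes no account of shared reads and does not bound Hsd3b4. Its coding sequence is the same as that of Gm10681, and every 100-base window of Hsd3b4-201 occurs in another gene's transcripts, so Hsd3b4 has no such window of its own. In Gm10681-202, 1465 of 1506 of those windows occur in another gene. The deposited posterior mean count, an average over ways of sharing the reads, gave Hsd3b4 11.3 counts (posterior SD 6.38) in replicate 2 and 11.6 counts (posterior SD 7.17) in replicate 1. Gm10681 held 30.2 counts in replicate 2 and 45.01 in replicate 1, and Gm4450 held 2.13 and 29.9. The sum over Hsd3b4, Gm10681 and Gm4450, whose coding sequences are at least 99.6% alike, was 32.3 counts in replicate 2 and 75.0 in replicate 1.

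At a mean of 1 TPM or more, 4 of 7 members counted as detected, namely Hsd3b1, Hsd3b6, Hsd3b7 and Hsd3b3. The last of these passed through replicate 2 alone, and by replicate 1 only 3 members passed. The alignment-free transcript table, made from the reads without an alignment, put Hsd3b1 at 4435 TPM in replicate 2 and 6513 TPM in replicate 1 and Hsd3b6 at 31.4 and 32.1 TPM. It left the first 3 in the same order of mean, and by its means 6 members passed 1 TPM. Hsd3b2 moved most, with 307 counts in replicate 2 and 224 counts in replicate 1 there, against 26 and 13 in the alignment-based table. All of those counts sat on Hsd3b2-202, whose last exon runs to 3063 bases against 1211 in Hsd3b2-201. Of the 31-base windows of Hsd3b2-202, 704 of 3665 occur in other genes but not in the rest of the family, Gm10681 or Gm4450, and of those of Hsd3b2-201 0 of 1758 do. How far such windows bear on the count was not tested.

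**Figure D2:**
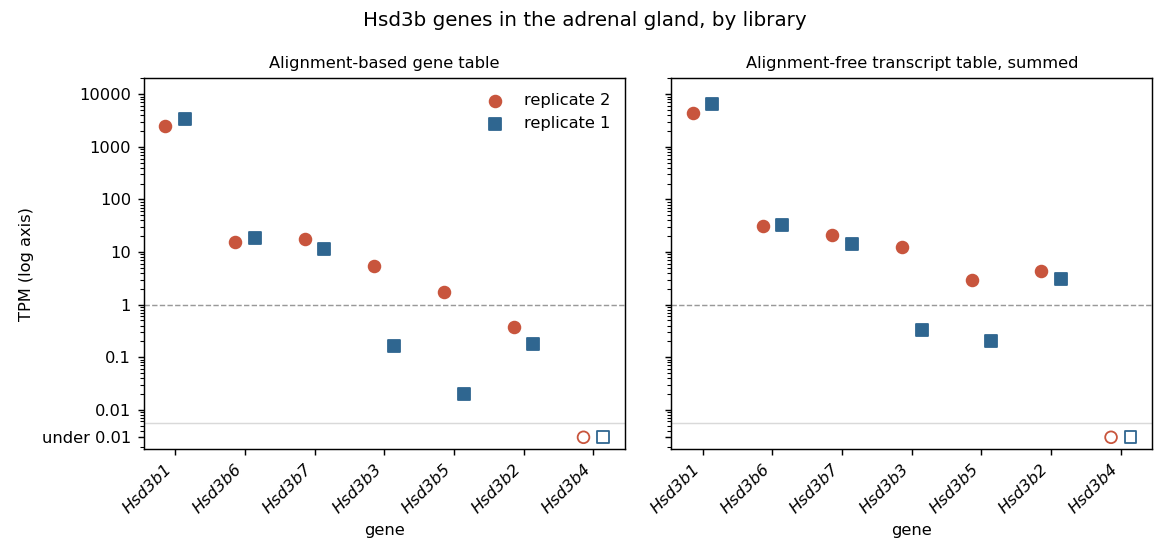
TPM of each Hsd3b gene on a log axis, in replicate 2 (circles) and replicate 1 (squares), from the alignment-based gene table on the left and the alignment-free table on the right, with the dashed line at 1 TPM and open symbols for values under 0.01 TPM. Hsd3b1 lies near 2477 and 3432 TPM, more than 100-fold over Hsd3b6 and Hsd3b7, while Hsd3b3 and Hsd3b5 are apart between the libraries in both tables.

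The related 3beta-dehydrogenase genes outside the family were also low. Nsdhl, a sterol dehydrogenase of cholesterol synthesis, stood at 9.04 TPM in replicate 2, against 7.44 TPM in replicate 1 (8.24 ± 1.13 TPM, SD, n = 2). Sdr42e1, a short-chain dehydrogenase relative, had 0.95 and 0.87 TPM in replicates 2 and 1 (0.910 ± 0.0566 TPM, SD, n = 2). Hsd3b1 thus held most of the RNA for 3beta-hydroxysteroid dehydrogenases of either list.

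How firmly a count belongs to its gene differed among the members. The deposited posterior SD of a gene's count states how much the count shifts when shared reads are placed differently, and here it is divided by the square root of the count. For Hsd3b1 this came to 0.000288 in replicate 2 and 0.000998 in replicate 1. Of the 100-base windows of Hsd3b1-201, 0 of 1564 occur in any other gene's transcripts. Hsd3b6 had 0.0957 in replicate 2 and 0.0297 in replicate 1, with 3.29% of 100-base windows of Hsd3b6-201 shared. Hsd3b2 had 0.331 in replicate 2 and 0.420 in replicate 1, with 12.1% of such windows of Hsd3b2-201 shared. All windows are of mm10 transcripts, and how CAST/EiJ alleles bear on the placing of reads was not tested.

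Hsd3b7 was the least certain of the well-expressed members, at 0.708 in replicate 2 and 0.792 in replicate 1. That was above 94.3% of genes with 10 or more counts in replicate 2 and above 94.8% in replicate 1. The median gene was at 0 in both libraries, so any value above 0 ranks high. Hsd3b1 was itself above 79.8% of those genes in replicate 2, and Hsd3b6 above 86.1%. Most of the exon sequence of Hsd3b7 is shared with Gm49388, a protein-coding gene annotated on the same strand from 127785608 to 127803802 of chromosome 7. Of the 100-base windows of Hsd3b7-201, 93.7% occur in that gene. In TPM Hsd3b7 stood above Gm49388 in both tables. Gm49388 was at 2.87 TPM in replicate 2 and 1.93 TPM in replicate 1, which put Hsd3b7 6.06-fold above it in replicate 2 and 5.93-fold in replicate 1. In the alignment-free table Hsd3b7 reached 20.8 TPM in replicate 2 and 14.03 in replicate 1, against 8.52 and 7.59 TPM for Gm49388. In counts, which are not corrected for length, the split moved further between the tables. Hsd3b7 held 828 and 644 counts in replicates 2 and 1 against 436 and 325 for Gm49388 by alignment, and 655 and 467 against 866 and 805 without it.

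The 7 genes had 30 annotated transcripts between them, 13 of them of Hsd3b7. Hsd3b1 has 2, which share all coding exons. Hsd3b1-202 carries an additional non-coding exon of 190 bases, chr3:98858152-98858341, between the first exon and the exon with the start codon. Hsd3b1-201, without it, took 65.5% of the gene's TPM in replicate 2 and 64.1% in replicate 1, or 64.8% ± 0.998 (SD, n = 2). The alignment-free table gave Hsd3b1-201 34.6% in replicate 2 and 36.4% in replicate 1, so the main transcript was Hsd3b1-201 in one table and Hsd3b1-202 in the other, in both libraries.

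Those percentages rest on many counts, so the gap between the tables was far larger than the spread between libraries or the stated uncertainty. The posterior SD of the Hsd3b1-201 count was 684 of 75750 counts in replicate 2 and 879 of 113910 counts in replicate 1. Over 12509 genes with several transcripts and 1 TPM or more in both tables, the main transcript differed between the tables in 24.6%, and in 35.8% of the 495 genes at 100 TPM or more. Hsd3b1's gap between the tables exceeded that of 84.8% of the 12509 genes, and of 65.1% of the 495. The difference between libraries was 1.41 percentage points, replicate 2 minus replicate 1, in the alignment-based table and -1.77 points in the alignment-free table. No replicate check of those small differences exists, as each animal has 1 library. The 2 transcripts encode the same protein-coding bases, so the choice between them leaves the coding part of Hsd3b1 as it is.

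Of the 3 transcripts of Hsd3b6, Hsd3b6-201 led in both libraries and both tables. It took 73.3% of the gene's TPM in replicate 2 and 69.9% in replicate 1, or 71.6% ± 2.45 (SD, n = 2). Hsd3b6-202, which has the same coding exons and lacks the first, non-coding exon of 262 bases, took 26.7% in replicate 2 and 28.3% in replicate 1. That transcript adds no exon of its own, and the alignment-free table listed it at 0 in replicate 2 and under 0.01% in replicate 1. There the remainder went to Hsd3b6-203, a processed transcript of 601 bases that lacks the start-codon exon, at 19.9% in replicate 2 and 2.65% in replicate 1. On counts that was 36.3 reads in replicate 2 and 5.13 in replicate 1.

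**Figure D3:**
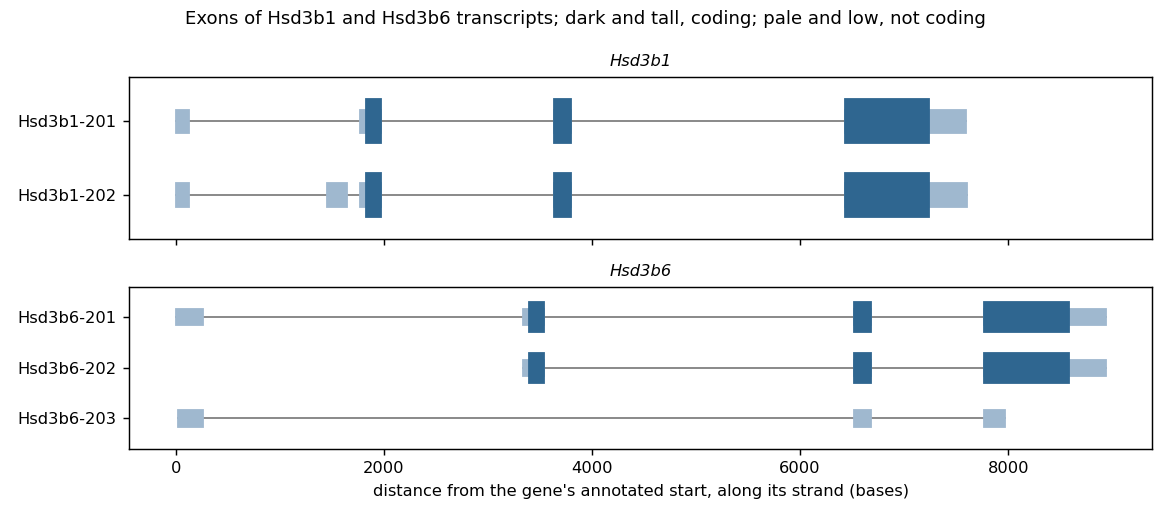
Exons of the 2 Hsd3b1 and 3 Hsd3b6 transcripts along the distance in bases from the annotated start of each gene, drawn on the gene's own strand, with coding parts dark and tall and non-coding parts pale and low. Hsd3b1-202 differs from Hsd3b1-201 by the additional exon of 190 bases, and Hsd3b6-202 from Hsd3b6-201 by the missing first exon of 262 bases.

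Hsd3b7 was spread over more forms. Hsd3b7-201, the coding transcript of 7 exons, took 61.1% of the gene's TPM in replicate 2 and 72.0% in replicate 1, and 60.8% and 65.6% in the alignment-free table. The retained-intron transcript Hsd3b7-210 took 17.1% in replicate 2 and 16.0% in replicate 1, and Hsd3b7-213, also of that class, took 7.59% and 2.01%. A retained-intron transcript keeps an intron that the coding form removes. The 5 retained-intron transcripts of the gene together took 26.2% in replicate 2 and 20.3% in replicate 1, and 37.6% and 34.4% in the alignment-free table. Total RNA libraries also hold unspliced RNA, and its part in these shares was not tested.

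For Hsd3b3 the tables assigned part of the reads to different transcripts. Hsd3b3-204 took 51.6% of the gene's TPM in replicate 2 and 75.0% in replicate 1, the last on 5.82 counts. In the alignment-free table Hsd3b3-204 took 0.196% in replicate 2 and under 0.01% in replicate 1. Hsd3b3-206 led that table in replicate 2, with 47.5%, against 15.6% in replicate 1. Hsd3b3-203 took 11.9% in replicate 2 and led with 75.2% in replicate 1, on 6.11 counts, and by mean share it was the main transcript of that table (43.5%, against 31.5% for Hsd3b3-206). Hsd3b5 has 1 transcript. For Hsd3b2 the main transcript depended on the measure. Hsd3b2-201 led by mean share of TPM, with 50.5% against 35.6% for Hsd3b2-202, on 11.6 counts in replicate 2 and 3.86 in replicate 1. The longer Hsd3b2-202 had more counts, 14.5 in replicate 2 and 7.71 in replicate 1, and all of the alignment-free share.

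**Figure D4:**
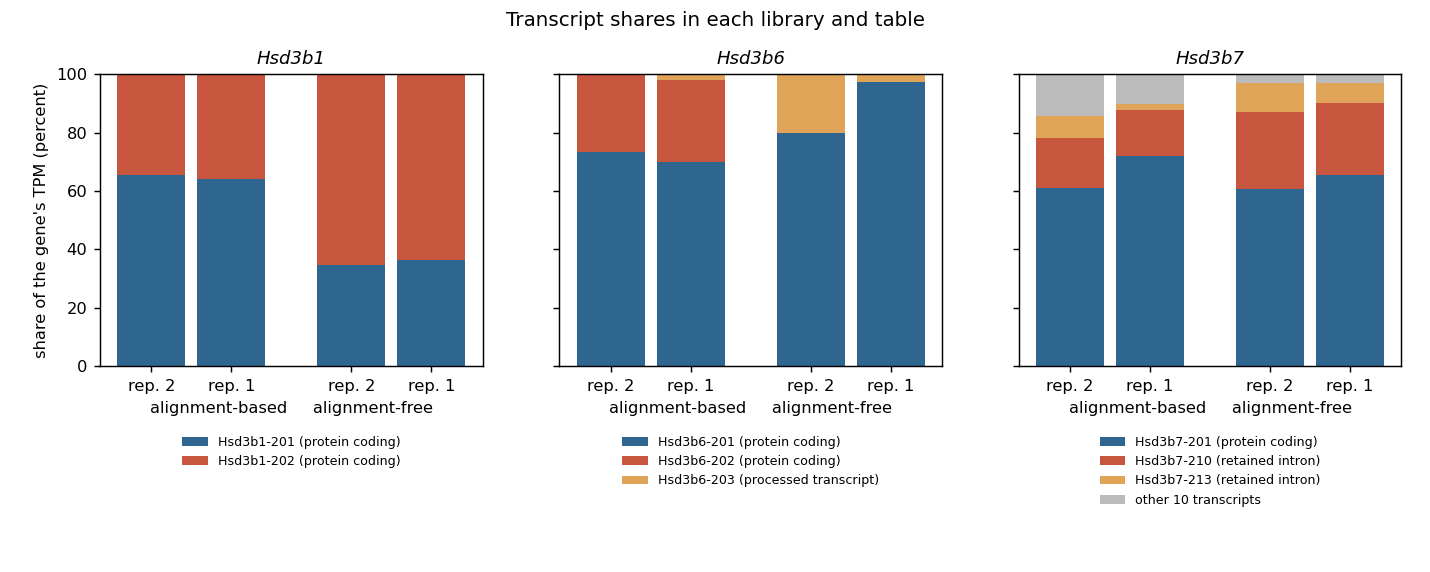
Share of each gene's TPM, in percent, taken by its transcripts in replicate 2 and replicate 1, from the alignment-based table (left pair of bars) and the alignment-free table (right pair), for Hsd3b1, Hsd3b6 and Hsd3b7. Hsd3b1-201 fills 65.5% and 64.1% of the left bars and 34.6% and 36.4% of the right ones, while the Hsd3b7-201 share differs less between the tables.

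Between the libraries the steroidogenic members were somewhat lower in replicate 2, Hsd3b7 somewhat higher, and Hsd3b3 and Hsd3b5 much higher. Each gene's rounded counts were compared by an exact two-sided binomial test against TMM library sizes from edgeR, with Benjamini-Hochberg adjustment over 18160 genes. Such a test compares 2 libraries and not conditions. A call needed an adjusted p under 0.05 and over 2-fold, which 3.98% of all genes tested passed. Of the 7 members 4 passed edgeR's filter on low counts, and 0 of these 4 were called. By adjusted p alone 3 of the 4 passed, Hsd3b1, Hsd3b6 and Hsd3b7, where 33.5% of all genes tested did.

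Hsd3b1 was 0.677-fold in replicate 2 relative to replicate 1 (95% interval 0.672 to 0.682), a log2 ratio of -0.56, with a p too small to be written in double precision. Hsd3b6 was 0.813-fold (0.739 to 0.895), a log2 ratio of -0.30 with an exact binomial adjusted p of 1.33e-04. Hsd3b7 was 1.34-fold (1.21 to 1.49), a log2 ratio of 0.42 with an exact binomial adjusted p of 2.91e-07. The common dispersion that edgeR found over the 2 libraries, a biological coefficient of variation of 0.233, corresponds to an SD of 0.48 in the log2 ratio of a gene. The differences of Hsd3b6 and Hsd3b7 were within that spread, and that of Hsd3b1 was little beyond it. Summed with Gm49388, with which it shares reads, Hsd3b7 had a log2 ratio of 0.44, or 0.29 from alignment-free counts. Gm49388 also overlaps Setd1a on the same strand, a gene with 2940 and 2429 counts in replicates 2 and 1 and a log2 ratio of 0.33. The part of Setd1a reads in that sum was not tested.

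The fourth member in the test was Hsd3b2, 2.08-fold higher in replicate 2 (1.03 to 4.42), a log2 ratio of 1.03 with an exact binomial adjusted p of 0.1003. It did not pass. With alignment-free counts its log2 ratio was 0.48, which passed by adjusted p at 7.79e-04 and stayed under 2-fold.

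Hsd3b3 and Hsd3b5 failed the filter because of their low counts in replicate 1 and had no value in the main test. By counts, Hsd3b3 was 29.4-fold higher in replicate 2 (14.7 to 69.0) and Hsd3b5 77.1-fold higher (13.4 to 3086), the last against 1 count. With no filter on low counts both were called, with exact binomial adjusted p of 1.51e-56 for Hsd3b3 and 3.68e-20 for Hsd3b5, where 3.4% of all 28783 genes were called higher. A filter on a mean of 10 or more counts, chosen after seeing the data, called both too, where 4.63% of its 19105 genes were called higher. Both passed that filter only through replicate 2, where they are high, so their calls under it add no support. Both genes are among the members known from liver or kidney. The liver list was higher in replicate 2 and most of the kidney list lower, as given below. The tissue source of Hsd3b3 and Hsd3b5 RNA was not tested.

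All 10 genes of the liver list (led by Alb, Ahsg, Trf and Afp, secreted proteins of liver cells) were called higher in replicate 2. Their median log2 ratio was 4.77, where all genes tested had a median of 0.00. The log2 ratio of Hsd3b3 was 4.79 and that of Hsd3b5 was 5.68. Per 10000 counts of the liver list, Hsd3b3 had 7.91 counts in replicate 2 (95% exact interval 6.90 to 8.99) and 7.12 in replicate 1 (2.93 to 13.4), so its level relative to liver genes did not differ detectably at this depth. Hsd3b5 had 2.57 in replicate 2 (2.03 to 3.24) and 0.891 in replicate 1 (0.0215 to 4.73) on the same scale. Its replicate 1 interval rests on 1 count and is too wide to show whether the ratio was kept. Hsd3b2 did not keep to that ratio, with 0.912 in replicate 2 (0.593 to 1.33) and 11.1 in replicate 1 (5.87 to 18.9). The part of liver RNA in the counts of any member was not tested.

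The summed counts of Hsd3b4 and its near copies went the other way, but of these genes only Gm4450, on few counts, differed beyond its interval. The sum over Hsd3b4, Gm10681 and Gm4450 was 0.445-fold in replicate 2 relative to replicate 1 (0.284 to 0.681), a log2 ratio of -1.16, or -1.10 from alignment-free counts. Gm4450, named after its values were seen, was 0.0695-fold on 2 and 30 counts in replicates 2 and 1 (0.00804 to 0.274). Gm10681 was 0.695-fold (0.422 to 1.13), with an exact binomial adjusted p of 0.28, and so did not differ detectably. Most markers of the kidney were lower in replicate 2 too. Of the members known from liver or kidney, Hsd3b3 and Hsd3b5 were higher in replicate 2 by counts, at log2 ratios of 4.79 and 5.68. Hsd3b2, at 1.03 with an exact binomial adjusted p of 0.1003, did not pass. Of 10 kidney genes 6 were tested and 5 were called lower, led in level by Slc34a1, the phosphate carrier of the proximal tubule, at 1.24 TPM in replicate 2 and 3.52 TPM in replicate 1. The median log2 ratio of the 6 was -1.45, and the 10 genes summed to 4.27 TPM in replicate 2 and 8.64 TPM in replicate 1, none at 0 in both. By TPM 8 of the 10 were lower in replicate 2. The other 2, named after their values were seen and not tested, were Kap, at 0.81 TPM in replicate 2 and 0.08 TPM in replicate 1 on 11 counts and 1 count, and Umod, at 0.18 and 0.14 TPM on 9 and 12 counts. The part of kidney RNA in these counts was not tested.

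**Figure D5:**
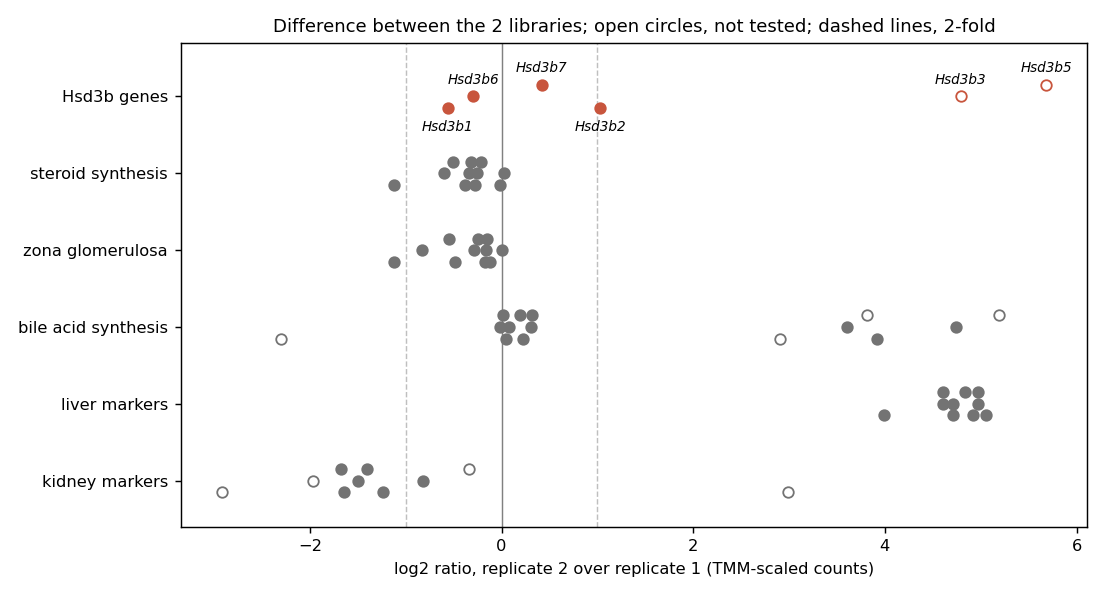
Log2 ratio of TMM-scaled counts, replicate 2 over replicate 1, for the Hsd3b genes and 5 gene lists, 1 circle a gene, with open circles for genes that failed the filter on low counts and dashed lines at 2-fold. Hsd3b3 and Hsd3b5 lie at 4.79 and 5.68 beside the liver genes, whose median is 4.77, and Hsd3b1 at -0.56 lies among the steroid synthesis genes, whose median is -0.32.

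Genes of steroid synthesis and of the zona glomerulosa differed less. Of 11 steroid synthesis genes, all tested, 0 were called higher and 1, Cyp11b2, lower in replicate 2. Their median log2 ratio was -0.32. Cyp21a1 had a log2 ratio of -0.60 and Cyp11b1 of -0.51, close to the -0.56 of Hsd3b1, while Cyp11a1 had -0.25 and Star -0.22. Of 11 zona glomerulosa genes, all tested, 1 was called lower, again Cyp11b2 at a log2 ratio of -1.13, and their median was -0.25. The -0.30 of Hsd3b6 lay between that median and the -0.32 of the steroid synthesis genes.

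In bile acid synthesis, the pathway of Hsd3b7, 11 of 15 genes were tested and 3 were called higher in replicate 2. The median log2 ratio of the 11 tested was 0.22, and the log2 ratio of Hsd3b7 was 0.42. The 3 were Cyp8b1, Slc27a5 and Acox2, named after their values were seen, at log2 ratios of 3.92, 4.75 and 3.605, which fall near the range of the liver list. The genes not tested were also named after their values were seen. Of these, Ch25h had a log2 ratio of -2.30 on 0 and 2 counts in replicates 2 and 1. Akr1c6, Cyp7a1 and Baat had log2 ratios of 5.19, 3.82 and 2.90. The 4 highest of the list did not share that difference. Akr1d1, a 5beta-reductase, stood at 103 TPM in replicate 2, against 91.5 TPM in replicate 1, at a log2 ratio of 0.05. Scp2 had 0.31, Hsd17b4 -0.02 and Amacr 0.08, peroxisomal proteins of side-chain shortening. Of 8 gonad genes 5 were tested and 0 were called (median log2 ratio 0.06), with Inha the highest at 28.6 and 25.4 TPM in replicates 2 and 1 and Cyp19a1 at 0 in both.

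Promoter sequences were searched for letters known from steroidogenic genes, in RefSeq windows of 250 bases before to 50 bases after a start on GRCm38.p6, of which all 7 members had at least 1 and together 9. On either strand AAGGTCA, a half-site of the orphan receptor NR5A1, was in 0 of 9 windows, against 4.72% of 32851 promoters. The form AAGGCCA was in 1, of Hsd3b2, against 6.20% of promoters. TATAAA on the forward strand was in 1, of Hsd3b4, against 8.32%. A match describes letters and not a site, and the absence of one says nothing of the factor.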

How the data were processed

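Total RNA-seq of 2 adrenal glands was analysed, 1 group of 2 biological replicates. The sample characteristics number different males and the biosample labels differ, while a shared description repeats 1 of the numbers and 1 donor label is common to both. Samples were treated as 2 animals. For each library the authors deposited 3 tables on mm10 with GENCODE M21 annotation, as stated in the text deposited beside them. The upstream programs and versions, and any use of strand in counting, were not given in the sources used here. Per the file headers, expected counts share reads among transcripts. The authors' TPM divide counts by effective length and are scaled to a fixed sum in each library. Per the file headers the gene tables also hold posterior means and SDs of counts and credibility bounds of TPM, a signal column whose level is not stated and which was only copied. Effective lengths were the length minus 99 bases in the alignment-based tables and minus 324.1 and 326.1 bases in the alignment-free tables of replicates 2 and 1, as read from the deposited columns, so short transcripts weigh differently in the 2 kinds of table.

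Expected counts were rounded for count methods. Spike-ins took 1.06% of counts in each library, and 26249 rows without a gene name held 3 and 3 counts and were left out. Library sizes used TMM in edgeR 4.0.16 (R 4.3.3) with filterByExpr; log2 ratios used a prior count of 0.5. The binomial test doubles the smaller tail. Coding sequences were compared by position, or with Biopython 1.88 global alignment where lengths differed; protein sequences were not used here. Alternatives were DESeq2 1.42.0 size factors, spike-in or total counts as library size, no filter, a mean count filter, alignment-free counts, posterior means, TPM rescaled over protein-coding genes, and each replicate left out. Named genes were the members, genes inside their stretch of chromosome 3, Nsdhl, Sdr42e1, up to 4 highest genes of each list and the neighbours of Hsd3b1 in level; exceptions are stated. Named transcripts held 5% or more of a detected member's TPM. The members and lists were chosen with earlier results of these data known.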

Additional observations from a re-analysis of the deposited data

How the results depend on the processing

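No paired analysis was possible because the series holds 1 group. Hsd3b1 kept the highest level in the family in each library and in every table tried. Its share of transcript Hsd3b1-201, 64.8% on average, was 35.5% in the alignment-free table, 35.1% with alignment-free counts over alignment-based effective length and 62.1% as a share of expected counts (the last 2 chosen after seeing the data). The difference in that share between libraries was 1.41 points, and -1.77 points in the alignment-free table. The number of members called between the libraries was 0 of 4 tested in the main setting, where 3.98% of all genes tested were called. It rose to 2 of 6, Hsd3b3 and Hsd3b5, only with no filter on low counts or with a mean count of 10 or more. In those settings 3.4% and 4.63% of all genes tested were called higher in replicate 2. Both members passed the mean count filter only through replicate 2. The number of members at 1 TPM or more was 4, with a range of 3 to 5 when 1 replicate was left out, 6 in the alignment-free table, and 5 where TPM was rescaled over protein-coding genes alone. That rescaling put Hsd3b1 at 7849 TPM, Hsd3b6 at 45.2, Hsd3b7 at 37.8, Hsd3b3 at 7.13 and Hsd3b5 at 2.19 TPM on average, where the deposited TPM gave 2955, 17.1, 14.4, 2.79 and 0.860. Scaling by DESeq2 size factors, spike-ins or total counts moved the median of all genes by at most 0.04 in log2 and no call of a member. Depth limits Hsd3b2 and Hsd3b5, which rest on 74 counts or fewer in each library of the alignment-based table. It also limits Hsd3b3 in replicate 1, on 8 counts. Hsd3b4 is limited by shared sequence, as every 100-base window of Hsd3b4-201 occurs in Gm10681. The cause of the changes between settings was not tested.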
